A study of Homo sapiens with 12 samples.

Results

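The 46 genes described here encode subunits, assembly chaperones, activators and 1 inhibitor of the proteasome, and are called the proteasome genes below. They are all rows of the 4 comparison tables deposited by the authors whose symbol is PSMA, PSMB, PSMC, PSMD, PSME, PSMF or PSMG followed by a number, without pseudogenes. All 46 are in each of the 4 tables and had an adjusted p-value there, of 20477 genes found in all 4 tables and 23375 found in at least 1. PSMA8 and PSMB11, the germ cell and thymic forms of 20S subunits, have no row and are not analysed here. The RNA came from SUM159, an established line of triple-negative breast cancer, that is, a line without the usual oestrogen, progesterone and HER2 receptor drive. The cells carried a control hairpin (shCTRL) or 1 hairpin against E4F1 (shE4F1), and were left untreated or given gemcitabine, a deoxycytidine analogue that blocks DNA synthesis, at 140 nM for 24 h. All 4 groups are the same line, each held 3 libraries of polyadenylated RNA, and all 12 libraries came from hairpin-bearing cells. The labels do not state if a group's 3 libraries are independent cultures, and every p-value therefore reflects the spread among these libraries alone, possibly a technical one. The knockdown rests on 1 hairpin, and an effect of that hairpin on other genes cannot be told apart from loss of E4F1.

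The 26S proteasome degrades proteins tagged with ubiquitin. Its 20S core is a barrel with outer alpha rings and inner beta rings, which hold the catalytic sites, and its 19S cap has an ATPase base that unfolds substrates and a lid that removes ubiquitin. Interferon raises alternative catalytic subunits, which make the immunoproteasome, and the PA28 alpha and beta cap, both known for shaping the peptides shown on MHC class I. When proteasome activity falls, the membrane-bound factor NFE2L1 is released by NGLY1 and the protease DDI2 and raises most constitutive proteasome genes together.

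Values below are log2 fold changes ± SE and adjusted p-values, both from the DESeq2 fits in the authors' deposited tables unless a difference between tables is named. A gene is said to have risen or fallen where its adjusted p was under 0.05. No value per library was used, so overlap between groups cannot be given. E4F1 itself (ENSG00000167967, chr16:2223566-2235742, plus strand, GRCh38) fell with its hairpin in the authors' deposited tables, by 0.99 ± 0.26 in untreated cells (adjusted p = 0.000778) and by 0.91 ± 0.16 under gemcitabine (adjusted p = 1.47e-07). The second of these calls was lost when the E4F1 change was instead taken as both changes minus gemcitabine in shCTRL (adjusted p = 0.0772). These 2 tables share the untreated shCTRL libraries, which makes the SE of their difference too large, so no conclusion is drawn from the loss. Among markers in the untreated table deposited by the authors, vimentin (VIM) had a mean of 66531 normalized counts, the keratin gene KRT18 2330, the HER2 gene ERBB2 2833 and the oestrogen receptor gene ESR1 9.2, and the progesterone receptor gene PGR has no row. Of the measured blood cell markers 1 fell and none rose there: PTPRC, with a mean of 42.6, fell by 2.21 ± 0.40 (adjusted p = 4.96e-07), CD14, LYZ and CD79A had means of 5.0, 22.6 and 3.0, and ITGAM and CD3E have no row. With gemcitabine in shCTRL cells 2 blood markers rose in the authors' deposited table, PTPRC 2.21-fold (adjusted p = 2.43e-05) and ITGAM 9.74-fold (adjusted p = 1.57e-14), at means of 144 and 27.1. The fibroblast-associated genes DCN and PDGFRA, with means of 529 and 793, had risen by 1.17 ± 0.20 and 1.09 ± 0.19 with shE4F1 in the authors' deposited table of untreated cells, and LUM has no row. Of the mesenchymal markers in that authors' deposited table, VIM fell by 0.40 ± 0.14 (adjusted p = 0.0111) and CD44 rose by 0.79 ± 0.15 (adjusted p = 2.97e-06). The keratin genes KRT18 and KRT8 had no call there. What these markers contribute to the results was not tested. In such bulk RNA fewer cells of a type and less RNA per cell cannot be told apart.

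The promoters of the 5 interferon-inducible members are shown because, with shE4F1 in untreated cells, 4 of these genes rose and 1 fell. Each window holds 250 bases before and 50 after a RefSeq transcription start (build GRCh38.p14), written 5′ to 3′ along the gene. Capitals mark a shortened interferon-response word, GAAANNGAA or its reverse complement TTCNNTTTC. TAP1, a peptide transporter gene, and PSMC2, the member with the largest fall, are shown for comparison. A RefSeq start of TAP1 lies beside that of PSMB9 on the other strand. PSMB8 has 2 annotated starts, and the one holding the word is printed, while the window of the other start has no match.
PSMB8 (chr6:32843998-32844297, minus): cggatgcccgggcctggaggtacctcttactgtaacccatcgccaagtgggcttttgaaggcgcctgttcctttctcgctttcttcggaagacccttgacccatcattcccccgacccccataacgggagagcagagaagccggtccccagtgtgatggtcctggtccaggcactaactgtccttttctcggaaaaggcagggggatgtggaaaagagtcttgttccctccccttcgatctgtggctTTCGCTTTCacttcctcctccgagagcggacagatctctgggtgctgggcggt
PSMB9 (chr6:32853942-32854241, plus): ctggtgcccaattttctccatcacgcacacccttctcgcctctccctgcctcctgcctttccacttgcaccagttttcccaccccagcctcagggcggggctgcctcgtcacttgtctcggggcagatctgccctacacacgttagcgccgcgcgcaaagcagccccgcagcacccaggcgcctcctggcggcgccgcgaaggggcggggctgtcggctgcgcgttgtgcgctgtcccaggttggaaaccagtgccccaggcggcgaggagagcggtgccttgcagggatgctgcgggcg
PSMB10 (chr16:67936801-67937100, minus): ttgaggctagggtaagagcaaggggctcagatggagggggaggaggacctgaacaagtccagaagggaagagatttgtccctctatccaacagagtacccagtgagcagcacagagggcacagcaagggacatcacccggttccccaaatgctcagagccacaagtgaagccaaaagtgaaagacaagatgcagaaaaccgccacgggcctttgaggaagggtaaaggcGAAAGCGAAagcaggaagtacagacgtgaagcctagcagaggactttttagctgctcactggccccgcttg
PSME1 (chr14:24135944-24136243, plus): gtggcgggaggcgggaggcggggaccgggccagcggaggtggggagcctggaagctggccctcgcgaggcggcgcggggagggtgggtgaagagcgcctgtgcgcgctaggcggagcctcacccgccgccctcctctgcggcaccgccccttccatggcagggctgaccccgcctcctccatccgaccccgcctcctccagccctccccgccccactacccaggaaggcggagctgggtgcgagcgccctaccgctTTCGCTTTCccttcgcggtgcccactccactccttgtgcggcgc
PSME2 (chr14:24146561-24146860, minus): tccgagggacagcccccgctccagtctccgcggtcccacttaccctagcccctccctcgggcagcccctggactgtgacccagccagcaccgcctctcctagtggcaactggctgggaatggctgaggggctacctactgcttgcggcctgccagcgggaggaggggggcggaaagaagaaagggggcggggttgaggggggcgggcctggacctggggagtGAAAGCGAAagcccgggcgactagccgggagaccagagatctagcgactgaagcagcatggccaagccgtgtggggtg
TAP1 (chr6:32853655-32853954, minus): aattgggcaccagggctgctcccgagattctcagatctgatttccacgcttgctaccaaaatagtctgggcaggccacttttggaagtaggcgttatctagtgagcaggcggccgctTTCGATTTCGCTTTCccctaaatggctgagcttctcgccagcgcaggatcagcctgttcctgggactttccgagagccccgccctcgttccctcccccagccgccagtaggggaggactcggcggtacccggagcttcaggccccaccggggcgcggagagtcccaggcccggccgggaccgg
PSMC2 (chr7:103347393-103347692, plus): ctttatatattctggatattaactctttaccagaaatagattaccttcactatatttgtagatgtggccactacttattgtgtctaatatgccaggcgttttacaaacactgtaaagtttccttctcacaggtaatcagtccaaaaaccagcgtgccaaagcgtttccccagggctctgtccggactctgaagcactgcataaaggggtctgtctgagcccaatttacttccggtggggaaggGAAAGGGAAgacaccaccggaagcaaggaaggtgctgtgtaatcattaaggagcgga

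Of these windows, PSMB9 alone lacks the word. It lies centred 17 bases before the start in PSMB10, 24 before it in PSME2 and 3 before it in PSMC2. In PSME1 it lies 10 bases after the start, and at this PSMB8 start 1 base after it. TAP1 also has 2 annotated starts: the window printed holds 2 overlapping copies, centred 129 and 123 bases before its start, and the other window has none. The printed TAP1 and PSMB9 windows overlap at their outer ends. A match describes letters and is not a bound site.

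The first comparison concerns the knockdown alone. In untreated cells the ATPase gene PSMC2 fell to the greatest extent of all members, the lid and base genes PSMD1 and PSMD13 each fell by more than 1 on the log2 scale, and 4 of the 5 interferon-inducible members rose. In all, 16 of the 46 members fell (34.8%) and 4 rose (8.70%), where 19.3% of all 19472 genes tested fell and 17.5% rose. Most members are abundant: 41 had a mean of 1000 normalized counts or more, and among all genes with such means 27.0% fell and 22.2% rose. The median over the members was -0.26, against -0.01 over all genes tested and -0.04 over the abundant ones. Not 1 of the 4 that rose was a constitutive subunit of the core or cap.

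**Figure D1:**
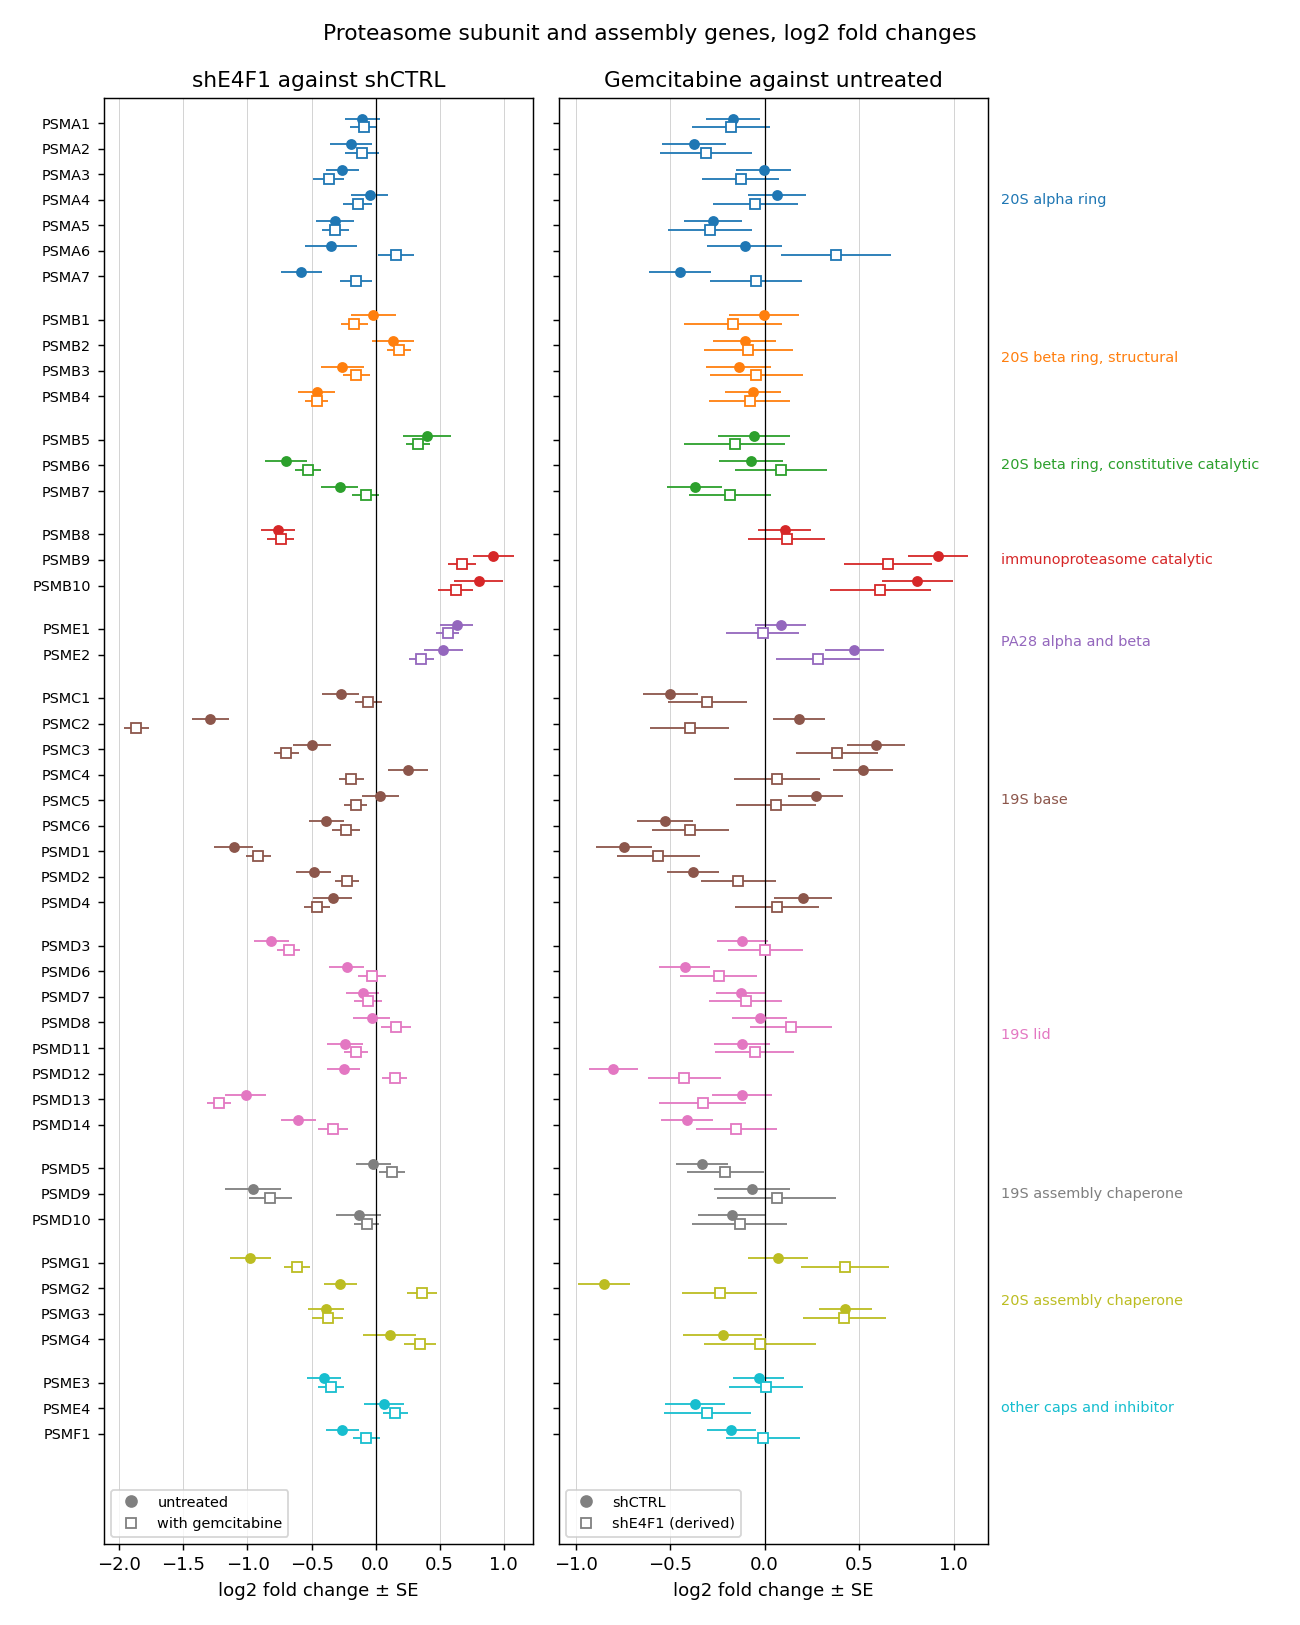
Log2 fold change (horizontal axis) with its SE (bars) for each of the 46 proteasome genes, coloured by class. The left panel compares shE4F1 with shCTRL, untreated (filled) and under gemcitabine (open); the right panel compares gemcitabine with no drug in shCTRL (filled) and, derived from 2 tables, in shE4F1 cells (open). PSMC2 lies farthest left at -1.29 and -1.87, and PSMB9 and PSMB10 lie to the right of 0 in both panels.

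Of the 14 genes of the constitutive 20S core 3 fell and none rose in untreated cells, with a median of -0.26. In the alpha ring, PSMA7 fell by 0.58 ± 0.16 (adjusted p = 0.00152) in the authors' deposited table, and the other 6 genes lay between -0.35 and -0.04 without a call. Among the structural beta genes PSMB4 fell by 0.46 ± 0.14 (adjusted p = 0.00583) in the authors' deposited table, and the other 3 did not pass the test. The 3 constitutive catalytic genes had unlike values. PSMB6, the caspase-like subunit, fell by 0.70 ± 0.16 (adjusted p = 0.000134) in the authors' deposited table, where PSMB7, the trypsin-like subunit, stood at -0.28 ± 0.14 (adjusted p = 0.118) and PSMB5, the chymotrypsin-like subunit, at 0.40 ± 0.18 (adjusted p = 0.0756). PSMB5 passed after all values had been centred on the median of genes averaging 50 normalized counts or above (adjusted p = 0.0420).

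The 3 immunoproteasome catalytic genes did not move as a unit. PSMB9 (chr6:32844136-32859585, plus strand), which replaces PSMB6, rose by 0.92 ± 0.16 in the authors' deposited table (1.89-fold higher, mean of 1946, adjusted p = 1.34e-07). PSMB10 (chr16:67934502-67937087, minus strand), which replaces PSMB7, rose by 0.81 ± 0.19 in the authors' deposited table (1.75-fold higher, mean of 394, adjusted p = 0.000129). PSMB8 (chr6:32840717-32844703, minus strand), which replaces PSMB5, fell by 0.76 ± 0.14 in the authors' deposited table (1.69-fold lower, mean of 2361, adjusted p = 2.17e-07). PSMB8 and PSMB9 are neighbours transcribed in opposite directions, and their log2 fold changes lay 1.68 apart. Both genes of the PA28 cap, which opens the core to peptides, rose: PSME1 by 0.63 ± 0.13 (adjusted p = 7.92e-06) and PSME2 by 0.53 ± 0.15 (adjusted p = 0.00216) in the authors' deposited table.

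Measured against the constitutive gene each one replaces, the inducible catalytic genes gained ground in 2 of 3 pairs. The PSMB9 change exceeded that of PSMB6 by 1.62 and the PSMB10 change that of PSMB7 by 1.09, on the log2 scale of the authors' deposited table. For PSMB8 and PSMB5 the order was turned, with a difference of -1.16. These differences within a table are descriptions with no test of their own.

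**Figure D2:**
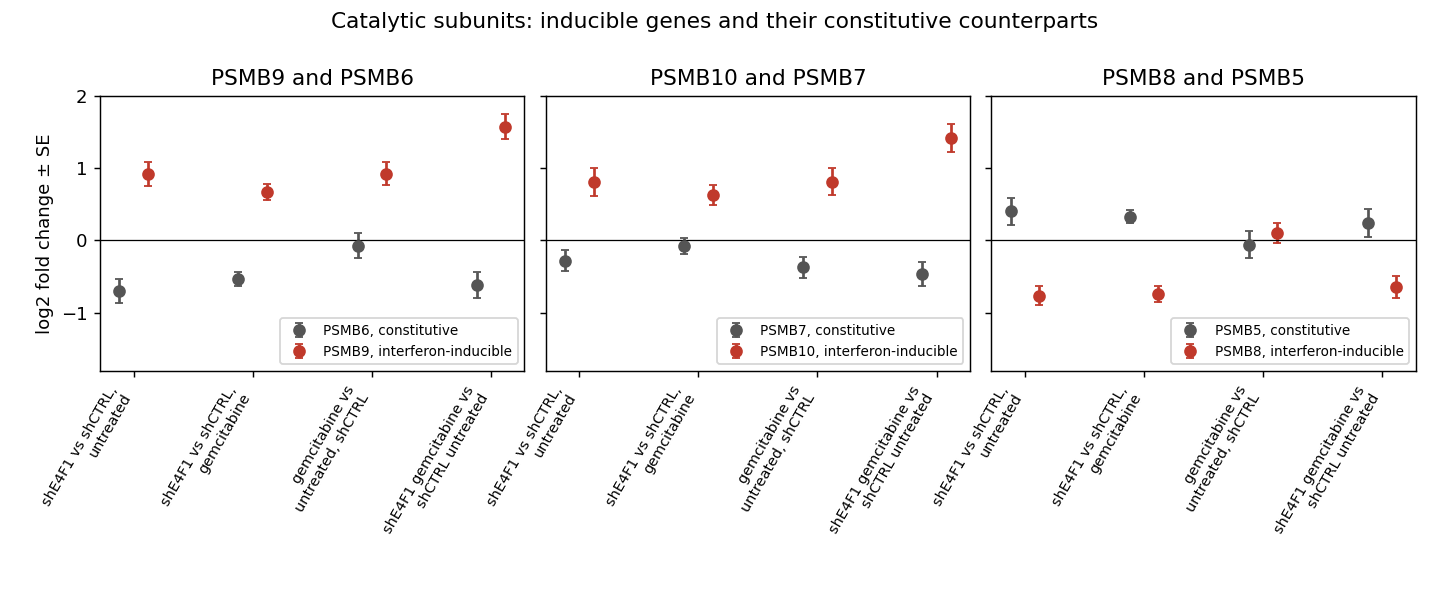
Log2 fold change ± SE (vertical axis) of each inducible catalytic gene (red) and of the constitutive gene it replaces (grey) in the authors' 4 deposited comparisons (horizontal axis). PSMB9 and PSMB10 lie above PSMB6 and PSMB7 in all 4, whereas PSMB8 lies below PSMB5 in the 3 comparisons that involve shE4F1.

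Reads in bases that neighbours share could be counted for the wrong gene or for none. In GENCODE 29, PSMB8 shares 20.6% of its exon bases with the antisense gene PSMB8-AS1 and with PSMB9 on the opposite strand. PSMB9 shares 5.70% of its exon bases with PSMB8-AS1 on its own strand and 4.5% with PSMB8 on the opposite one. PSMB8-AS1 rose by 1.15 ± 0.17 (adjusted p = 1.35e-10) in the authors' deposited table, with a mean of 367. PSMB10 shares 34.8% of its exon bases with AC040162.1 on the same strand. The strand setting of the counting is not given in the sources used here, and the part of these overlaps in the results was not tested.

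In the 19S cap 8 of 17 genes fell in untreated cells and none rose, with a median of -0.34. The 9 genes of the base, the ring of ATPases with its scaffolds, held 5 of these falls. PSMC2 (chr7:103344254-103369395, plus strand), an ATPase, fell by 1.29 ± 0.15 in the authors' deposited table (2.44-fold lower, mean of 3496, adjusted p = 5.52e-17). PSMD1 (chr2:231056864-231172827, plus strand), a large scaffold of the base, fell by 1.11 ± 0.15 in the authors' deposited table (2.16-fold lower, mean of 4172, adjusted p = 1.31e-11). The other scaffold, PSMD2, fell by 0.48 ± 0.13 and the ATPases PSMC3 and PSMC6 by 0.50 ± 0.15 and 0.39 ± 0.14 in the authors' deposited table. The ATPases were therefore unequal, with PSMC4 at 0.26 ± 0.16 (adjusted p = 0.201) and PSMC5 at 0.04 ± 0.14 (adjusted p = 0.875) according to the authors' deposited table although 1 copy of each enters every ring. PSMD4, a ubiquitin receptor, stood at -0.34 ± 0.15 there (adjusted p = 0.0671).

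Of the 8 lid genes 3 fell and all 8 had a value below 0. PSMD13 (chr11:236546-252984, plus strand), a lid scaffold, fell by 1.02 ± 0.16 in the authors' deposited table (2.02-fold lower, mean of 4532, adjusted p = 1.90e-09). PSMD3, also structural, fell by 0.81 ± 0.13 (adjusted p = 2.07e-08), and PSMD14, the enzyme that cuts ubiquitin off substrates, by 0.61 ± 0.14 (adjusted p = 6.41e-05), in the authors' deposited table. The remaining 5 lid genes lay between -0.25 and -0.03 without a call.

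Of the 7 assembly chaperone genes 3 fell. PSMG1, which pairs with PSMG2 to start the alpha ring, fell by 0.98 ± 0.16 in the authors' deposited table (adjusted p = 1.56e-08), whereas its partner PSMG2 stood at -0.28 ± 0.13 (adjusted p = 0.0783). In the second pair, PSMG3 fell by 0.38 ± 0.14 (adjusted p = 0.0210) and PSMG4 stood at 0.11 ± 0.21 (adjusted p = 0.730) according to the authors' deposited table. Among chaperones of the 19S base PSMD9 fell by 0.96 ± 0.22 (adjusted p = 6.10e-05, mean of 238, the lowest mean of any member), with PSMD5 at -0.02 ± 0.14 and PSMD10 at -0.13 ± 0.17 in the authors' deposited table. Each assembly pair thus held 1 gene that fell and 1 that did not pass the test. Of the other caps, PSME3, the nuclear PA28 gamma, fell by 0.40 ± 0.13 (adjusted p = 0.00884), while PSME4, the PA200 cap, stood at 0.07 ± 0.16 and PSMF1, the inhibitor PI31, at -0.26 ± 0.13 (adjusted p = 0.103) according to the authors' deposited table.

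Around the members, 49 further genes of the pathway were measured, and in untreated cells 17 of them fell (34.7%) and 7 rose (14.3%). Most are abundant, 44 of the 49, and of all abundant genes 27.0% fell and 22.2% rose. The counts for classes of pathway genes below are to be read beside these shares. Of 10 genes for transcription of the proteasome genes and its control, 4 fell and 1 rose. NFE2L1, the factor that raises proteasome genes, fell by 1.09 ± 0.17 (adjusted p = 6.27e-09), and DDI2, the protease that frees it, rose by 0.55 ± 0.15 (adjusted p = 0.00110) in the authors' deposited table. MAFF, a small Maf protein of the kind that partners NFE2L1 on DNA, fell by 1.46 ± 0.24 (adjusted p = 1.25e-08) in the authors' deposited table. NFE2L1 protein activity was not measured, and its RNA need not follow it.

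Among 12 proteasome-associated genes outside the symbol rule 3 fell and 2 rose in untreated cells. AKIRIN2, which brings proteasomes into the nucleus, fell by 1.25 ± 0.17 (adjusted p = 5.72e-12), and the ubiquitin ligase gene UBE3C rose by 0.88 ± 0.14 (adjusted p = 2.17e-09) in the authors' deposited table. POMP, the maturation factor of the core, stood at -0.03 ± 0.14, the deubiquitinase USP14 at -0.18 ± 0.14 and the ubiquitin receptor ADRM1 at -0.50 ± 0.22 (adjusted p = 0.0521) according to the authors' deposited table. ADRM1 passed with p-values adjusted only over genes averaging at least 50 normalized counts (adjusted p = 0.0393). Of 18 genes for ubiquitin and substrate delivery 7 fell and none rose, with the shuttle gene UBQLN2 at -1.23 ± 0.18 (adjusted p = 8.33e-11) according to the authors' deposited table.

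The 9 regulators and peptide-loading partners of the immunoproteasome did not move one way: 4 rose and 3 fell. NLRC5, a transactivator of MHC class I genes, rose by 0.79 ± 0.15 (adjusted p = 1.81e-06) in the authors' deposited table. TAP1 (chr6:32845209-32853978, minus strand) fell by 0.58 ± 0.14 (adjusted p = 0.000193), and TAPBP, which bridges the transporter to MHC class I, fell by 0.94 ± 0.18 (adjusted p = 1.30e-06), in the authors' deposited table. PSMB9 and TAP1, which have RefSeq starts beside each other, thus lay 1.5 apart on the log2 scale. The interferon-activated factor IRF1 stood at 0.01 ± 0.19 (adjusted p = 0.981) according to the authors' deposited table of untreated cells.

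The second comparison again sets shE4F1 against shCTRL, here in drug-treated cells and with other libraries on both sides. Here 17 of the 46 members fell (37.0%) and 7 rose (15.2%), where 20.8% of all 22433 genes tested fell and 20.3% rose. Abundant genes, those averaging at least 1000, had higher shares of 30.2% and 32.8%. The members' share of falls was thus closer to that of abundant genes, and their share of rises was below it. The SE of members was smaller than in untreated cells, with a median of 0.10 against 0.15.

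PSMC2 again had the largest fall of any member, 1.87 ± 0.10 in the authors' deposited table (3.65-fold lower, adjusted p = 1.27e-73). PSMD13 fell by 1.22 ± 0.10 (2.33-fold lower, adjusted p = 5.26e-35) and PSMD1 by 0.92 ± 0.10 (1.89-fold lower, adjusted p = 3.36e-19) according to the authors' deposited table. Of the 17 cap genes 8 fell and none rose, PSMC3 by 0.70 ± 0.10 and PSMD3 by 0.68 ± 0.09 in the authors' deposited table. In the constitutive core 4 of 14 fell and 1 rose, the riser being PSMB5 at 0.33 ± 0.09 (adjusted p = 0.00183) according to the authors' deposited table. PSMB6 fell by 0.53 ± 0.10 (adjusted p = 9.40e-07) and PSMB7 stood at -0.08 ± 0.11 (adjusted p = 0.630) in the same authors' deposited table.

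The interferon-inducible genes kept the signs of untreated cells. PSMB9 rose by 0.67 ± 0.11 (adjusted p = 9.27e-09) and PSMB10 by 0.62 ± 0.14 (adjusted p = 2.04e-05), whereas PSMB8 fell by 0.74 ± 0.11 (adjusted p = 3.38e-11), in the authors' deposited table. PSME1 rose by 0.56 ± 0.09 (adjusted p = 8.24e-09) and PSME2 by 0.36 ± 0.10 (adjusted p = 0.000774) in the authors' deposited table. The antisense gene PSMB8-AS1 rose by 0.50 ± 0.13 (adjusted p = 0.000572) in the authors' deposited table. The pairs again differed in order, with PSMB9 above PSMB6 by 1.20, PSMB10 above PSMB7 by 0.70 and PSMB8 against PSMB5 at -1.07.

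Chaperones split by pair under gemcitabine as well. PSMG1 fell by 0.61 ± 0.10 (adjusted p = 6.35e-09) and PSMG2 rose by 0.36 ± 0.12 (adjusted p = 0.00684), while PSMG3 fell by 0.37 ± 0.12 (adjusted p = 0.00679) and PSMG4 rose by 0.35 ± 0.12 (adjusted p = 0.0151), in the authors' deposited table. PSMD9 fell by 0.82 ± 0.17 (adjusted p = 9.11e-06), with PSMD5 at 0.13 ± 0.10 and PSMD10 at -0.07 ± 0.10, in the authors' deposited table. PSME3 fell by 0.34 ± 0.10 (adjusted p = 0.00229), and PSME4 at 0.16 ± 0.10 and PSMF1 at -0.07 ± 0.10 did not pass, in the authors' deposited table. With the knockdown effect taken instead as both changes minus gemcitabine in shCTRL, 8 members fell and 2 rose. The SE is too large there because both tables use the untreated shCTRL libraries, so no conclusion is drawn from lost calls. The calls lost included PSMB10 (adjusted p = 0.102), PSMB6 (adjusted p = 0.118), PSME3 (adjusted p = 0.230), PSMG3 (adjusted p = 0.244), PSMG2 (adjusted p = 0.302), PSME2 (adjusted p = 0.364), PSMB5 (adjusted p = 0.557) and PSMG4 (adjusted p = 0.592).

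Of the 49 pathway genes 15 fell (30.6%) and 12 rose (24.5%) under gemcitabine, where 30.2% of the abundant genes fell and 32.8% rose. NFE2L1 stood at -0.10 ± 0.10 (adjusted p = 0.471), DDI2 rose by 0.29 ± 0.10 (adjusted p = 0.0140) and MAFF fell by 1.66 ± 0.10 (adjusted p = 6.74e-55) in the authors' deposited table. UBE3C rose by 1.02 ± 0.09, UCHL5, a deubiquitinase of the cap, fell by 0.91 ± 0.12, and USP14 fell by 0.32 ± 0.10 (adjusted p = 0.00317), in the authors' deposited table. POMP stood at -0.18 ± 0.12 and ADRM1 at -0.10 ± 0.15 in the authors' deposited table, both without a call. Among delivery genes, where 3 of 18 rose and 3 fell, the receptor RAD23B rose by 0.54 ± 0.09 and UBQLN2 fell by 1.15 ± 0.11 in the authors' deposited table. In the immunoproteasome partners 5 of 9 rose and 3 fell, with the peptide trimmer ERAP1 at 0.83 ± 0.09 and TAP1 at -0.92 ± 0.11 in the authors' deposited table. The regulator IRF1 stood at -0.23 ± 0.12 (adjusted p = 0.128) according to the authors' deposited table. As a difference of tables the calls of DDI2, USP14 and RAD23B were lost (adjusted p = 0.499, 0.295 and 0.0724).

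The untreated and the treated knockdown comparison have no library in common, so their calls can be set side by side. The 14 members lower in both were 14 of the 16 in untreated cells and of the 17 under gemcitabine. They were PSMB4, PSMB6, PSMB8, PSMC2, PSMC3, PSMD1, PSMD2, PSMD3, PSMD9, PSMD13, PSMD14, PSME3, PSMG1 and PSMG3. The 4 higher in both, PSMB9, PSMB10, PSME1 and PSME2, were all 4 of the rises in untreated cells and 4 of the 7 under gemcitabine. No member was called in opposite directions, and 20 were called in neither table. Of 11286 genes with a mean of 50 or more in untreated cells and a 3′ UTR to search, 2290 were lower in both. The shares of all genes higher in both, called in opposite directions or called in neither were not counted. For abundant genes none of these shares, nor that of genes lower in both, was counted. The overlap counts of the members are therefore descriptions, and nothing particular to the members is read from them. The falls called only in untreated cells were PSMA7 and PSMC6, and the calls made only under gemcitabine were PSMA3, PSMA5, PSMB5, PSMD4, PSMG2 and PSMG4. Whether these single calls differ between conditions is the question of the interaction below.

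**Figure D3:**
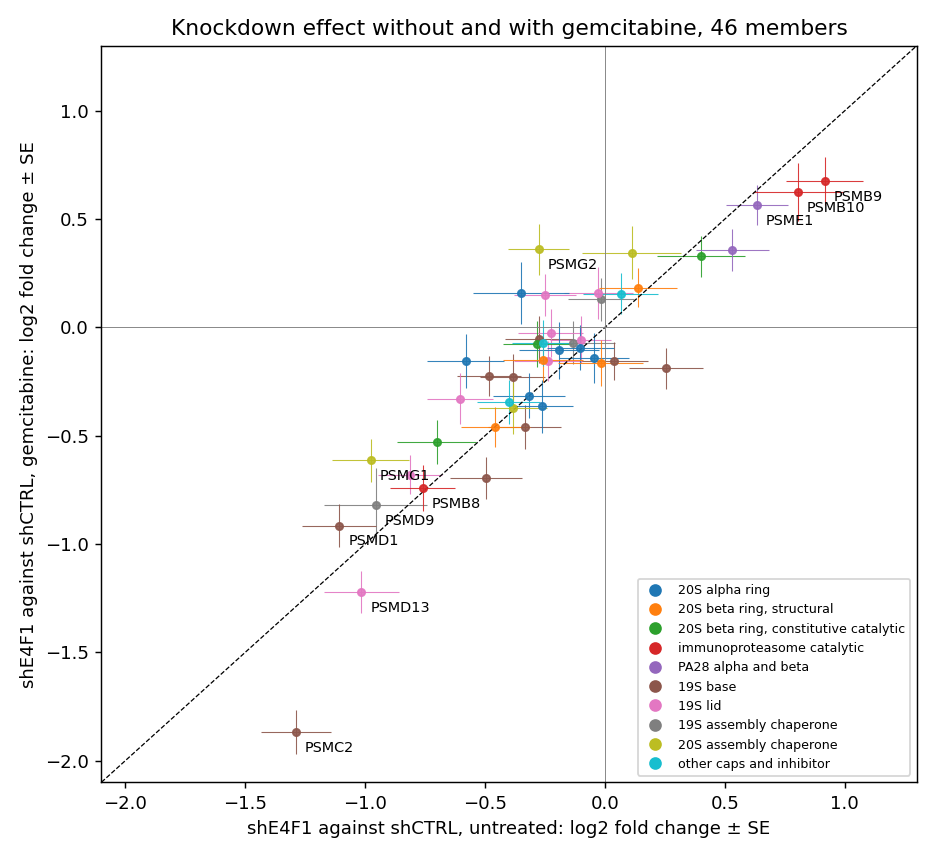
Log2 fold change ± SE of shE4F1 against shCTRL for each of the 46 proteasome genes, untreated (horizontal axis) and under gemcitabine (vertical axis), coloured by class; the dashed line marks equal values. PSMC2 lies below the line at -1.29 and -1.87, and PSMG2 lies above it at -0.28 and 0.36.

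The interaction subtracts the untreated knockdown effect from the one under gemcitabine and was tested as the difference of those tables. It passed in 2 of 46 members, 1 up and 1 down, where 2.81% of all 20923 genes tested had a higher and 2.63% a lower effect under gemcitabine. For PSMC2 the fall was larger under gemcitabine by a difference of -0.58 ± 0.18 (adjusted p = 0.0271). For PSMG2 (chr18:12658043-12725740, plus strand) the difference was 0.64 ± 0.17 (adjusted p = 0.00921). Both calls were lost when the effect under gemcitabine was itself taken as a difference of tables (adjusted p = 0.498 for PSMC2 and 0.38 for PSMG2). Shared libraries make the SE of that version too large, so it cannot decide on these calls. For the interferon-inducible members the differences lay between -0.24 and 0.02, with no call. Of the 8 members called in only 1 of the knockdown comparisons, PSMG2 alone passed, and PSMA7, whose fall was called in untreated cells, had a difference of 0.43 ± 0.20 (adjusted p = 0.254).

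Among the pathway genes the interaction passed in 4 of 49 (8.16%), all up, where it was up in 2.81% of all genes and 5.55% of abundant ones. NFE2L1 had a difference of 0.99 ± 0.20 (adjusted p = 9.85e-05): its fall with shE4F1 was seen in untreated cells and not under gemcitabine. FAF1, an adaptor of the unfoldase VCP, had a difference of 0.90 ± 0.17, RAD23B of 0.75 ± 0.17 and KIAA0368, a scaffold that holds core and cap together, of 0.53 ± 0.17 (adjusted p = 2.76e-05, 0.000578 and 0.0314). The call of KIAA0368 was lost after centring (adjusted p = 0.0856). With the effect under gemcitabine taken as a difference of tables, all 4 calls, those of NFE2L1, FAF1, RAD23B and KIAA0368, were lost (adjusted p = 0.125, 0.0651, 0.215 and 0.666). The antisense gene PSMB8-AS1 passed too, with a difference of -0.65 ± 0.21 (adjusted p = 0.0403), and this call was lost in the same way (adjusted p = 0.489).

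The third comparison concerns gemcitabine with E4F1 left in place. Of the 46 members 10 fell (21.7%) and 6 rose (13.0%), where 13.5% of all 20002 genes tested fell and 14.5% rose, and 25.2% and 11.7% of the abundant genes. These shares of members are close to those of abundant genes. The table shares its untreated and its treated shCTRL libraries with the pair of knockdown tables, 1 set with each, so that no overlap with them is read from it.

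PSMB9 and PSMB10 had the largest rises of any member, 0.92 ± 0.16 (1.89-fold higher, adjusted p = 1.62e-07) and 0.81 ± 0.19 (1.75-fold higher, adjusted p = 0.000154), in the authors' deposited table. PSMB8 stood at 0.11 ± 0.14 (adjusted p = 0.630) beside them, PSME1 at 0.08 ± 0.13 (adjusted p = 0.696), and PSME2 rose by 0.48 ± 0.16 (adjusted p = 0.0128), in the authors' deposited table. The ATPases PSMC3 and PSMC4 rose by 0.59 ± 0.16 (adjusted p = 0.00116) and 0.52 ± 0.16 (adjusted p = 0.00601) in the authors' deposited table. Their ring partners PSMC6 and PSMC1 fell, by 0.53 ± 0.15 (adjusted p = 0.00249) and 0.50 ± 0.15 (adjusted p = 0.00379), and PSMC2 stood at 0.18 ± 0.14 (adjusted p = 0.363), according to the authors' deposited table. PSMC1 shares 75.8% of its exon bases with NRDE2 on the opposite strand and has 13 named pseudogenes, so its value is uncertain.

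Of the 8 lid genes 3 fell and none rose. The lid gene PSMD12 fell by 0.80 ± 0.13 (1.74-fold lower, adjusted p = 2.69e-08) and the scaffold PSMD1 by 0.74 ± 0.15 (1.67-fold lower, adjusted p = 9.87e-06) in the authors' deposited table. PSMA7 fell by 0.45 ± 0.16 (adjusted p = 0.0262) and PSMB7 by 0.37 ± 0.15 (adjusted p = 0.0416) in the authors' deposited table, and centring ended both calls (adjusted p = 0.0633 and 0.103). Taken as both changes minus the knockdown under gemcitabine, 5 members fell and 3 rose. The shared shE4F1 gemcitabine libraries make that SE too large, so no conclusion is drawn from lost calls. The calls lost included PSMC4, PSME2, PSMA7, PSMB7 and PSMG3 (adjusted p = 0.0537, 0.0895, 0.158, 0.185 and 0.191). PSMB5 and PSMB6 stood at -0.06 ± 0.19 and -0.07 ± 0.17 in the authors' deposited table.

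In each chaperone pair of the alpha ring 1 gene passed the test with the drug. PSMG2 fell by 0.85 ± 0.14 (1.80-fold lower, adjusted p = 1.40e-08), the largest fall of any member here, and PSMG1 stood at 0.07 ± 0.16 (adjusted p = 0.792), according to the authors' deposited table. PSMG3 rose by 0.43 ± 0.14 (adjusted p = 0.0122) and PSMG4 stood at -0.22 ± 0.21 (adjusted p = 0.473) according to the authors' deposited table. PSMD5, PSMD9 and PSMD10 stood at -0.33 ± 0.14 (adjusted p = 0.0594), -0.07 ± 0.20 and -0.17 ± 0.18, and PSME3, PSME4 and PSMF1 at -0.03 ± 0.14, -0.37 ± 0.16 (adjusted p = 0.0720) and -0.18 ± 0.13, in the authors' deposited table. PSMD5 passed with p-values adjusted only over genes averaging at least 50 (adjusted p = 0.0464).

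Of the 49 pathway genes 13 fell (26.5%) and 8 rose (16.3%) with gemcitabine, where 25.2% of the abundant genes fell and 11.7% rose. IRF1, which drives interferon-inducible genes, rose by 1.65 ± 0.19 (3.14-fold higher, adjusted p = 5.28e-16), and TAP1 rose by 0.42 ± 0.14 (adjusted p = 0.0155), according to the authors' deposited table. PSMB8-AS1 rose by 1.44 ± 0.16 (adjusted p = 5.63e-18) in the authors' deposited table. NFE2L1 fell by 0.57 ± 0.17 (adjusted p = 0.00619), MAFF rose by 1.27 ± 0.23 (adjusted p = 4.01e-07) and DDI2 by 0.43 ± 0.15 (adjusted p = 0.0196) in the authors' deposited table. The cap chaperone PAAF1 rose by 0.43 ± 0.14 (adjusted p = 0.0146), and KIAA0368 fell by 0.84 ± 0.14 (adjusted p = 4.88e-08), in the authors' deposited table. Taken as a difference of tables the calls of TAP1, PAAF1 and DDI2 were lost (adjusted p = 0.142, 0.114 and 0.149). Among delivery genes RAD23B fell by 1.13 ± 0.14 and the autophagy receptor SQSTM1 rose by 0.61 ± 0.18 in the authors' deposited table. POMP at 0.04 ± 0.14, ADRM1 at -0.12 ± 0.22 and USP14 at 0.11 ± 0.14 in the authors' deposited table gave no call.

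The table of both changes compares gemcitabine-treated shE4F1 cells with untreated shCTRL cells. It held the most falls among the proteasome genes: 22 of 46 fell (47.8%) and 4 rose (8.70%), where 16.3% of all 19724 genes tested fell and 15.8% rose, and 27.2% and 15.1% of the abundant genes. The median over the members was -0.30, against -0.12 over the abundant genes. In the 19S cap 10 of 17 fell, in the constitutive core 7 of 14 and among the chaperones 3 of 7, and no gene of these 3 classes rose.

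Here PSMB9 rose by 1.57 ± 0.17 (2.97-fold higher, adjusted p = 7.03e-19) and PSMB10 by 1.42 ± 0.19 (2.67-fold higher, adjusted p = 2.27e-12) in the authors' deposited table. PSME2 rose by 0.81 ± 0.16 (adjusted p = 5.22e-06) and PSME1 by 0.62 ± 0.14 (adjusted p = 0.000106), and PSMB8 fell by 0.64 ± 0.15 (adjusted p = 0.000143), in the authors' deposited table. PSMB9 thereby exceeded PSMB6 by 2.19 and PSMB10 exceeded PSMB7 by 1.88 on the log2 scale, since PSMB6 fell by 0.61 ± 0.18 and PSMB7 by 0.47 ± 0.16 in the authors' deposited table. As the sum of 2 other tables the call of PSMB7 was lost (adjusted p = 0.0591). PSMB5 stood at 0.24 ± 0.19 (adjusted p = 0.365) and lay 0.89 above PSMB8.

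Among cap genes PSMC2 fell by 1.69 ± 0.15 (3.22-fold lower), PSMD1 by 1.67 ± 0.16 (3.19-fold lower), PSMD13 by 1.34 ± 0.17 (2.54-fold lower), PSMD3 by 0.81 ± 0.15 and PSMC6 by 0.78 ± 0.15 in the authors' deposited table. Of the chaperones PSMD9 fell by 0.89 ± 0.23, PSMG1 by 0.55 ± 0.17 and PSMG2 by 0.51 ± 0.15, with PSMG3 at 0.04 ± 0.17, PSMG4 at 0.09 ± 0.21, PSMD5 at -0.22 ± 0.15 and PSMD10 at -0.26 ± 0.18, in the authors' deposited table. PSME3 fell by 0.39 ± 0.14 (adjusted p = 0.0243; 0.0615 after centring and 0.103 as the sum of 2 other tables), and PSME4 and PSMF1 stood at -0.24 ± 0.17 and -0.27 ± 0.15 in the authors' deposited table.

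Of the pathway genes 16 of 49 fell (32.7%) and 7 rose (14.3%) in this comparison, where 27.2% of the abundant genes fell and 15.1% rose. IRF1 rose by 1.43 ± 0.19 and DDI2 by 0.69 ± 0.16, while NFE2L1 fell by 0.69 ± 0.18 and TAP1 by 0.51 ± 0.15, in the authors' deposited table. AKIRIN2 fell by 1.27 ± 0.19, UBQLN2 by 1.31 ± 0.18 and TAPBP by 0.71 ± 0.18, and UBE3C rose by 0.55 ± 0.15, in the authors' deposited table. POMP, ADRM1 and USP14 stood at -0.16 ± 0.16, -0.24 ± 0.23 and -0.23 ± 0.15 in the authors' deposited table, without a call. According to the authors' deposited table PSMB8-AS1 rose by 1.91 ± 0.18.

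The gemcitabine effect in shE4F1 cells is in no deposited table and was derived as the table of both changes minus the untreated knockdown. None of the 46 members passed in it, where 0.925% of all 21080 genes tested rose and 0.185% fell. The shared shCTRL libraries make its SE too large, with a median of 0.22 over the members, so that few calls are possible. At an unadjusted p under 0.05 there were 4 of the 46 members, 1350 of all 21080 genes tested and 626 of the 6601 abundant genes. The share of members was thus near that of abundant genes. The 4 members were PSMB9 at 0.65 ± 0.23 and PSMB10 at 0.61 ± 0.27 above 0, and PSMD1 at -0.56 ± 0.22 and PSMD12 at -0.42 ± 0.19 below it (adjusted p = 0.219, 0.537, 0.360 and 0.596). The other inducible members stood at 0.12 ± 0.20 for PSMB8, -0.01 ± 0.19 for PSME1 and 0.28 ± 0.22 for PSME2. The chaperones PSMG1, PSMG2, PSMG3 and PSMG4 stood at 0.42 ± 0.23, -0.24 ± 0.20, 0.42 ± 0.22 and -0.02 ± 0.30. Of the pathway genes IRF1 alone passed, at 1.42 ± 0.27 (adjusted p = 4.60e-05), and NFE2L1 stood at 0.40 ± 0.25.

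Levels can be compared between members only per length. Per 1000 exon bases of the GENCODE 29 gene model, the mean normalized count in the untreated table deposited by the authors was lowest for PSMD9, at 27.1, and highest for PSMB3, at 4755. The constitutive catalytic genes PSMB5, PSMB7 and PSMB6 had 2951, 2779 and 2233 per 1000 bases. The inducible genes lay below each of them, PSMB8 at 788, PSMB9 at 633 and PSMB10 at 213. PSME1 had 3525 and PSME2 1313 per 1000 bases. These means average shCTRL and shE4F1 libraries, have no replicate spread, and depend on how many exons the gene model counts, which for a gene with many isoforms exceed what 1 transcript holds. Reads in exon bases shared with another gene could also be missing from them, which was not tested. On the same strand such bases make up 19.9% of PSMD9 and 34.8% of PSMB10.

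RefSeq promoter windows were found for 40 of the 46 members, 49 windows in all, and not for PSMA7, PSMB1, PSMB6, PSMB7, PSMD4 and PSMG3. The interferon-response word GAAANNGAA was searched on both strands and lies in 8 members (20%) and in 9.86% of all 27305 genes with a window. The 8 are PSMB8, PSMB10, PSME1 and PSME2, printed above, and PSMC2, PSMA4, PSMB4 and PSMG4. Hence the word occurs both in members that rose with shE4F1 and in members that fell. The core of the antioxidant response element, TGACNNNGC, to which NFE2L1 and its Maf partners are known to bind, lies in 15 members (37.5%) and in 16.1% of all genes. The box CCAAT, the word of the factor NF-Y, lies in 19 members (47.5%) and 39.7% of all genes. An E4F1-like word, TGACGTNA, lies in 0 of the 40 members and in 3.63% of all genes, and no match says only that these letters are not in these windows.

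**Figure D4:**
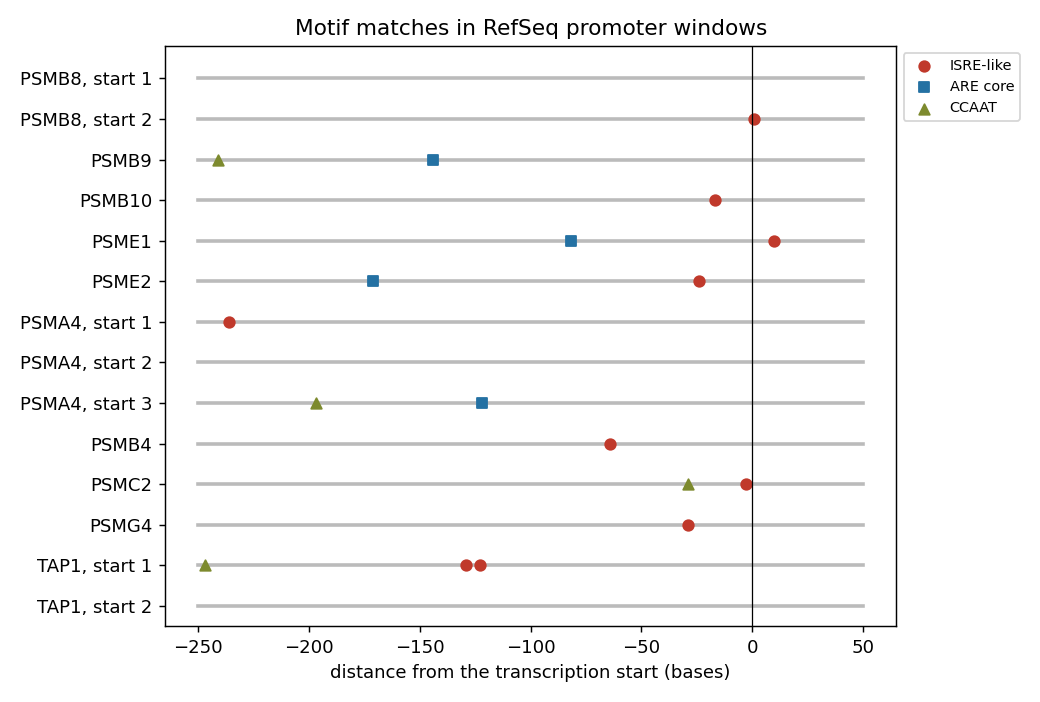
Positions of 3 short words in RefSeq promoter windows of the 8 members that hold the interferon-response word, of PSMB9 and of TAP1, drawn as distance in bases from the transcription start (vertical line). Windows run from 250 bases before to 50 after the start. The word (red circles) lies within 29 bases of the start in PSMB8, PSMB10, PSME1, PSME2, PSMC2 and PSMG4, and farther from it in PSMB4, PSMA4 and TAP1. The word is not in the PSMB9 window, which covers only the RefSeq start of that gene. The TAP1 copies lie between the TAP1 and PSMB9 starts, beyond the limit of the PSMB9 window.

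The 7-base word AAGTGCT was searched in 3′ UTRs because earlier work on these data had found it more often in genes lower with shE4F1. For each gene the longest 3′ UTR in GENCODE 29 was used. It lies in 8 of the 46 members (17.4%) and in 23.5% of 11286 genes with a mean of 50 or more. Among the 14 members lower in both knockdown comparisons, PSMD9 and PSME3 hold it (2 of 14, 14.3%), against 30.4% of all 2290 genes lower in both and 21.7% of the others. The 30.4% and 21.7% come from the data in which the word was found, so they are no separate test of it. The 14 members have a median 3′ UTR of 342 bases and the 2290 genes one of 1194, and lengths were not matched. PSMC2, PSMD1 and PSMD13 do not hold the word. The 3′ UTRs of members are short, with a median of 358 bases against 1435 over all genes searched, and longer sequences hold a given word more often. The sites of the pair are printed with the word in capitals and 10 bases on either side.
PSMD9: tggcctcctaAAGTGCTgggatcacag
PSME3: accggaaggaAAGTGCTaggtgttttt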

How the data were processed

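Polyadenylated RNA from 12 SUM159 libraries in 4 groups of 3 was sequenced as single reads of 50 bases, per the labels. Per the submitters' processing notes, the authors' tools included TopHat2 2.1.1 and Bowtie2 2.2.9, HTSeq 0.9.0, and in R 3.4.0 the package DESeq2 1.14.1, besides bcl2fastq and FastQC, and the build was GRCh38.p7. Not given in the sources used here are the annotation release, the strand setting, any filter and the design formula. Per the file headers, the authors' 4 deposited tables give each gene a log2 fold change and SE, a Wald score, a mean of normalized counts (a signal, averaged over both groups' libraries), and raw and adjusted p-values. Missing adjusted p-values were left missing. In the deposited counts, 12 columns matched no sample label and were not used, so depth per library is unknown here and no value has a replicate spread of its own.

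The gemcitabine effect in shE4F1 cells (both changes minus untreated knockdown) and the interaction (knockdown under gemcitabine minus untreated) were computed from these tables with a two-sided normal test on the difference and its SE, with Benjamini-Hochberg adjustment over 21080 and 20923 genes. In the first, the shared untreated shCTRL libraries make the SE too large. Whether the authors' fits pulled log2 fold changes towards 0, and by how much in each table, was not checked here. Both derived comparisons would carry any such pull that differed between the tables. The scripts used Python 3.11.15, numpy 2.4.6, pandas 2.3.3, scipy 1.17.1 and matplotlib 3.10.9, and were checked on simulated data. The simulation drew the tables of each difference independently, with normal errors of the given SE. It therefore could not test the effect of shared libraries or the SE itself. The planned edgeR and DESeq2 fits of counts could not be made. Alternatives were an adjusted p under 0.01, a log2 change of at least 0.5, a mean of 50 or more, no filter, centring on the median, and values rebuilt from other tables. Rebuilt values combine tables that share libraries, so their SE is too large and no conclusion is drawn from calls lost in them.

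All members could be named. The inducible and constitutive catalytic genes, PA28 genes, chaperones and other caps are given in every comparison, with the 5 largest called rises and falls of the other members and, of the pathway, fixed genes and the largest called rise and fall of each class. Some genes of these lists are not reported here. PSMB8-AS1, and RAD23B for the interaction, were added after their values were seen. Members and lists were chosen with earlier results of these data known. Positions, exons and 3′ UTRs come from GENCODE 29 (GRCh38), and promoter windows, 250 bases before to 50 after a start, from RefSeq (GRCh38.p14).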

Additional observations from a re-analysis of the deposited data

Results flagged for a closer look

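For 7 genes the effect of shE4F1 differed between gemcitabine-treated and untreated cells by a test of the difference itself, the normal test on the 2 deposited DESeq2 tables with adjustment over all genes tested. Among the members, the difference (gemcitabine minus untreated, log2) was -0.58 ± 0.18 for PSMC2 (adjusted p = 0.0271) and 0.64 ± 0.17 for PSMG2 (adjusted p = 0.00921). PSMC2 fell in both conditions and to a greater extent under gemcitabine, whereas PSMG2 had no call in untreated cells and rose under gemcitabine. Among the pathway genes it was 0.99 ± 0.20 for NFE2L1 (adjusted p = 9.85e-05), 0.90 ± 0.17 for FAF1 (adjusted p = 2.76e-05), 0.75 ± 0.17 for RAD23B (adjusted p = 0.000578) and 0.53 ± 0.17 for KIAA0368 (adjusted p = 0.0314). For the antisense gene PSMB8-AS1, which was added after its values were seen, it was -0.65 ± 0.21 (adjusted p = 0.0403).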

How the results depend on the processing

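No paired analysis was possible because the deposited comparison tables hold no values per library, and the fits with edgeR or DESeq2, with a replicate block and with each replicate left out were not run for the same reason. Over the genes named in each comparison, with RAD23B and PSMB8-AS1 added for the interaction after seeing the data, 1131 gene values kept direction and call under the alternatives, 70 lost and 6 gained a call, and 15 reversed, none of the 15 being called. Among the 46 members, requiring a log2 change of at least 0.5 left 10 falls in untreated knockdown, 3 rises and 9 falls in knockdown under gemcitabine and 4 falls with gemcitabine in shCTRL. An adjusted p under 0.01 left 6 falls of members with gemcitabine in shCTRL, and in the interaction 0 lower members and the 1 higher member, PSMG2. These counts are smaller because the thresholds are stricter. Values rebuilt from the other tables gave 2 rises and 8 falls of members in knockdown under gemcitabine. They gave 3 rises and 5 falls with gemcitabine in shCTRL, and 0 rises and 0 falls in the interaction. Shared libraries make the SE of rebuilt values too large, so these counts cannot decide on the calls. Dropping the filter on low means changed no call of a named gene.

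Centring turned the sign of values near 0: PSMD5 (0.0327) and POMP (0.0166) in untreated knockdown, PSMB5 (0.0052) and PSME3 (0.0312) with gemcitabine in shCTRL, PSME1 (0.0168), PSMF1 (0.0188) and PSMG4 (0.0039) with gemcitabine in shE4F1, and PSMD10 (-0.0113), PSME3 (-0.0168), PSMG3 (-0.0616) and PSMB8 (-0.0526) in the interaction. Rebuilding from the other tables did so for PSME1 (0.0152), PSMF1 (0.0115) and PSMG4 (0.0117) with gemcitabine in shE4F1 and for PSMG3 (-0.0039) in the interaction. Centring shifts no comparison by more than 0.0732. Depth per library is unknown here, so the counting error behind low genes such as PSMD9 could not be separated from replicate spread.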

Other observations

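The antisense genes named after members were looked up after the values of PSMB8-AS1 and PSMG3 were seen. Beside PSMB8-AS1, 4 had a row. In the authors' deposited tables PSMG3-AS1 rose with shE4F1 by 0.77 ± 0.28 in untreated cells (adjusted p = 0.0205) and by 0.95 ± 0.26 under gemcitabine (adjusted p = 0.000986), where PSMG3 fell by 0.38 ± 0.14 and 0.37 ± 0.12. PSMA3-AS1 rose by 0.56 ± 0.14 (adjusted p = 0.0005) and 0.51 ± 0.11 (adjusted p = 3.03e-05) in the authors' deposited tables, and PSMA3 was called lower under gemcitabine only. PSMD6-AS2, with means of 27.8 and 32.4, stood at 0.64 ± 0.39 (adjusted p = 0.204) and rose by 0.99 ± 0.36 (adjusted p = 0.0155) in the authors' deposited tables, where PSMD6 had no call. PSMD5-AS1 stood at -0.35 ± 0.18 (adjusted p = 0.121) and -0.21 ± 0.16 (adjusted p = 0.326) in the authors' deposited tables, and PSMD5 had no call either. In the GENCODE gene model used here, PSMA3 and PSMD5 share 0.0% of their exon bases with other genes on either strand. On the opposite strand PSMG3 shares 3.1% with PSMG3-AS1, and PSMD6 shares 7.8% with PSMD6-AS1 and PSMD6-AS2. Without the strand setting of the counting, reads from these shared bases of PSMG3 and PSMD6 cannot be told apart with certainty. The annotation release behind the authors' counts is not given, so overlap in their own gene model was not tested.

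By exon overlap in GENCODE 29, 8 members share exon bases with another gene on their own strand, 18 on the opposite strand, and 10 have named pseudogenes. Of the 3 members with the largest falls in untreated knockdown, PSMC2 shares none, PSMD1 shares 10.8% on the opposite strand with HTR2B and PSMD13 shares 6.6% there with SIRT3. The chaperone gene PSMG2 shares 16.7% of its exon bases on the opposite strand.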
